A study of Mus musculus with 12 samples.

Results

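Interferon-stimulated genes are the genes that cells switch on when interferon, a secreted alarm protein of antiviral defence, binds its receptor. A list of 41 such genes was taken, all 41 were found among the 46095 gene symbols of the count table, and all 41 were among the 17530 genes with enough counts to be tested. RNA-seq counts came from mouse renal cortex, the outer part of the kidney, in 3 groups: normal controls (NC), diabetic nephropathy (DN, the kidney damage that diabetes causes) and diabetic nephropathy with sodium butyrate treatment (DN+NaB; butyrate is a fatty acid that gut bacteria produce). Each group had 4 libraries, and every library was labelled C57BL/6 and 12 weeks of age. The labels do not state how diabetes was produced, the dose, route or length of the butyrate treatment, or the sex of the mice, and no group of healthy mice given butyrate is among the samples. The series describes 4 mice per group, yet the labels do not match libraries with animals, so p-values reflect the spread between these libraries.

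Interferon of type I (alpha and beta) and of type III signals through receptor-bound kinases to a complex that includes Stat2 and Irf9 and binds the interferon-stimulated response element in promoters. Interferon gamma, the type II interferon, acts through a promoter element of its own, the gamma-activated site. The induced proteins sense viral RNA and DNA, block translation or virus release, or attack the compartments in which microbes hide. In the kidney the programme is best known from viral infection, lupus nephritis and transplant rejection, and tubule, endothelial and immune cells can all express it.

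The promoters of 5 members that were higher in DN than in NC are shown first, because they carry the response element described above. They are the 250 bases before the RefSeq start of each gene in the GRCm38.p6 assembly, written 5′ to 3′ on the strand of the gene. Capitals mark the letters of the response element, searched on both strands as GAAA, any 2 bases and GAAA again, with overlapping matches counted (on the opposite strand it reads TTTC, any 2 bases, TTTC). The stretch of Igtp is chr11:58199306-58199555 (plus strand). Those of the other 4 are, for Ifit1, chr19:34640639-34640888 (plus strand), for Ifit3, chr19:34583279-34583528 (plus strand), for Isg15, chr4:156200819-156201068 (minus strand) and, for Bst2, chr8:71537473-71537722 (minus strand).
Ifit1: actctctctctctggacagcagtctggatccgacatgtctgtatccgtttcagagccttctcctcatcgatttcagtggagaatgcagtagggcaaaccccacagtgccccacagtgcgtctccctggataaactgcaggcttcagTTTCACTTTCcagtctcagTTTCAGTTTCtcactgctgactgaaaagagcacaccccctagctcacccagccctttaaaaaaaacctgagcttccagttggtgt
Ifit3: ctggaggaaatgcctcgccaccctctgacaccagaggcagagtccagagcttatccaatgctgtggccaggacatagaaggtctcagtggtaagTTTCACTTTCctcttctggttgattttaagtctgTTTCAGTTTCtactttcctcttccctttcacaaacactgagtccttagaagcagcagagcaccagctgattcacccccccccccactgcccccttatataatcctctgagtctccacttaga
Isg15: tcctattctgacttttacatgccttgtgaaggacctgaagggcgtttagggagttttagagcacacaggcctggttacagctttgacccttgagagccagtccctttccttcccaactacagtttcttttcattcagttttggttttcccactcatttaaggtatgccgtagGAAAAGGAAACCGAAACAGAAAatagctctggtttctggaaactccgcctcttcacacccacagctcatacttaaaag
Bst2: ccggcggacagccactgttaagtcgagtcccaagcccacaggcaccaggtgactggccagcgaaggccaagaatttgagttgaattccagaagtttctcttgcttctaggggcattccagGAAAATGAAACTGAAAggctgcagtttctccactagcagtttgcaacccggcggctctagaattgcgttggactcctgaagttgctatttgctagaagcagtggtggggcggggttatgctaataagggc
Igtp: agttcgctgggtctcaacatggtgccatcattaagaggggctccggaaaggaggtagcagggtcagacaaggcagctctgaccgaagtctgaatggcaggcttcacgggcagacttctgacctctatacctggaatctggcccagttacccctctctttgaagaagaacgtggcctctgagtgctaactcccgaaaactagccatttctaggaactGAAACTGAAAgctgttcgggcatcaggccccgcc

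Ifit1 and Ifit3, neighbours in the same gene family, each held the same pair of 10-base matches, TTTCACTTTC and TTTCAGTTTC. They began 104 and 85 bases before the start in Ifit1, and 156 and 122 bases before it in Ifit3. Isg15 held 3 overlapping matches that began 78, 72 and 66 bases before its start. Bst2 held 2 overlapping matches from 130 bases before its start, and a gamma-activated site, searched as TTC, any 3 bases and GAA, overlapped the first of them. Igtp held 1 match 34 bases before its start, next to a gamma-activated site that began 45 bases before it. Promoter windows of 300 bases, which add 50 bases after the start, were present for 30 of the 41 members in the RefSeq table. The response element was found in 18 of these 30 (60%), against 3.99% of the 27025 genes in that table. The gamma-activated site was found in 8 of the 30 (26.7%), against 9.55% of all genes. Among the members with a window, 6 of the 10 called higher in DN than NC held the response element, as did 12 of the 20 that were not called. Irf7, Irf9, Xaf1 and Oasl1 held neither set of letters in this window, which says nothing of sites elsewhere. No window was in the table for Dhx58, Zbp1, Oas2, Mx1, Mx2, Usp18, Rtp4, Ifi27, Ifi27l2a, Parp9 and Parp14.

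In DN, 14 of the 41 genes were higher than in NC and none was lower, at an adjusted p under 0.05 over all tested genes. The 14 are the transcription factors Irf7 and Irf9, the RNA sensors Ddx58 and Dhx58, the effectors Ifit1, Ifit3, Oasl1, Mx2, Bst2 and Xaf1, the Isg15 and Usp18 pair, Ifi27, and the GTPase Igtp. They make up 34.1% of the list, while 3.82% of all tested genes were called higher and 4.42% lower. The count was 7 when any of NC 1, NC 2, NC 3 or DN 4 was left out, and the shares above do not apply to those fits. The log2 fold change was above 0 for 40 of the 41 genes (51.8% of all tested genes), Ifi27l2a being the exception. Its median over the list was 1.28, beside 0.01 over all tested genes. For 21 members all 4 DN libraries lay above all 4 NC libraries, which was so for 5.86% of all tested genes. No member had every DN library below every NC library, beside 7.49% of all tested genes.

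In DN+NaB, 12 of the 41 were called higher than in NC and none lower, and all 12 were among the 14 called in DN. That is 29.3% of the list, beside 6.62% of all tested genes called higher and 8.94% called lower. The count was 19 without DN+NaB 1, and the shares above do not apply to that fit. The median log2 fold change of the list was 0.76, and 35 of 41 members were above 0 (49.2% of all tested genes). Only 5 members, Irf7, Usp18, Xaf1, Ifi27 and Igtp, had all DN+NaB libraries above all NC libraries, and none had all of them below. These shares are 14.0% and 13.9% of all tested genes. This comparison and that of DN with NC share the NC libraries.

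Between DN+NaB and DN no member was called in either direction by edgeR's quasi-likelihood test. At an unadjusted p under 0.05 there were 3 of the 41, Ifi27l2a on the higher side and Gbp2 and Gbp3 on the lower side. Such a p-value was found for 1726 of the 17530 tested genes. DESeq2 called 1 member, Gbp2, lower in DN+NaB, and limma voom called none. Of all tested genes, 0.0114% were called in each direction (2 genes each). The log2 fold change was below 0 for 34 of the 41 members and above 0 for 7, against 47.2% of all tested genes above 0. Its median was -0.35 over the list and -0.02 over all tested genes, and the list median became -0.02 when DN 4 was left out. No member had non-overlapping groups, beside 2.13% of all tested genes with DN+NaB higher and 2.44% with DN+NaB lower. The smallest adjusted p among the members was 0.234, for Gbp2.

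**Figure D1:**
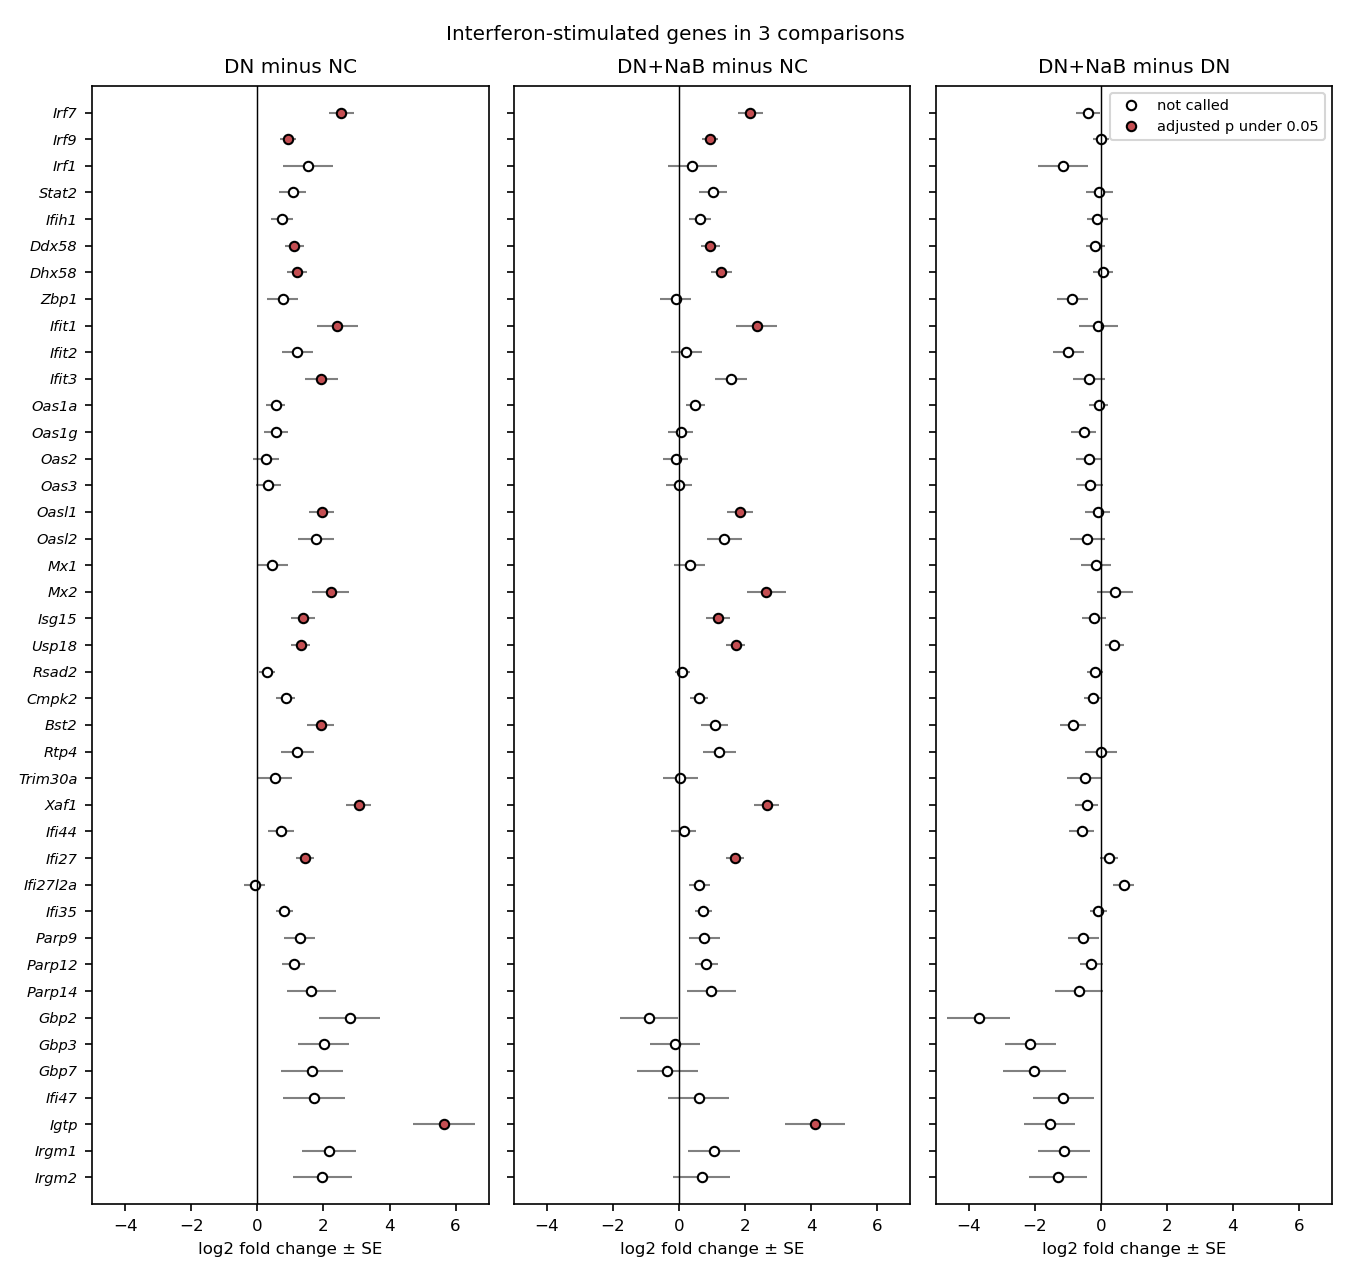
Log2 fold change (horizontal axis) of each of the 41 interferon-stimulated genes (vertical axis) in 3 comparisons. Bars are ± 1 SE of the edgeR fit and filled points have an adjusted p under 0.05: 14 points are filled in DN minus NC, 12 in DN+NaB minus NC and none in DN+NaB minus DN.

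Values per library are given as CPM, gene counts scaled to library size and composition, in the order of replicates 1 to 4 of each group. The numbers only name the libraries. Because these are bulk samples, fewer cells of a type and less RNA per cell cannot be told apart.

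Among the transcription factors, Irf7 and Irf9 rose in DN. Irf7 drives the amplifying, later phase of interferon production. Irf7 stood at 56.5, 36.9, 48.0 and 44.2 CPM in NC, 292, 208, 179 and 404 in DN and 91.0, 139.6, 266 and 332 in DN+NaB. Both diabetic groups lay wholly above NC, with DN+NaB 1 the lowest of the 8. Irf7 had a log2 fold change of 2.55 ± 0.39 (SE, adjusted p = 0.00171) in DN and 2.16 ± 0.38 (SE, adjusted p = 0.00281) in DN+NaB, each against NC, and -0.39 ± 0.37 (SE, adjusted p = 0.756) between DN+NaB and DN. Irf9, the DNA-binding subunit of the complex named above, stood at 28.3, 26.7, 28.6 and 35.6 CPM in NC, 51.8, 55.3, 57.5 and 62.5 in DN and 29.1, 49.0, 65.9 and 83.9 in DN+NaB. Its DN libraries were tightly grouped above NC, while DN+NaB ran from inside the NC range to above every DN library. Irf9 had a log2 fold change against NC of 0.93 ± 0.24 (SE, adjusted p = 0.0283) in DN and 0.94 ± 0.24 (SE, adjusted p = 0.0179) in DN+NaB.

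Stat2, the partner of Irf9, and Irf1, a factor that interferon gamma induces strongly, did not pass the test. Stat2 ranged from 32.6 to 64.8 CPM across NC, 72.1 to 138 across DN and 36.0 to 160.2 across DN+NaB, so DN lay above NC (log2 fold change 1.07 ± 0.41, adjusted p = 0.151). Irf1 stood at 36.5, 35.5, 43.6 and 104 CPM in NC, 124, 42.0, 196 and 277 in DN and 21.3, 25.1, 76.9 and 167 in DN+NaB. DN 2 lay within the NC range, and NC 4 was above the other NC libraries and above DN 2. Its log2 fold change was 1.54 ± 0.76 (SE, adjusted p = 0.276) in DN against NC and -1.14 ± 0.75 (SE, adjusted p = 0.659) in DN+NaB against DN.

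**Figure D2:**
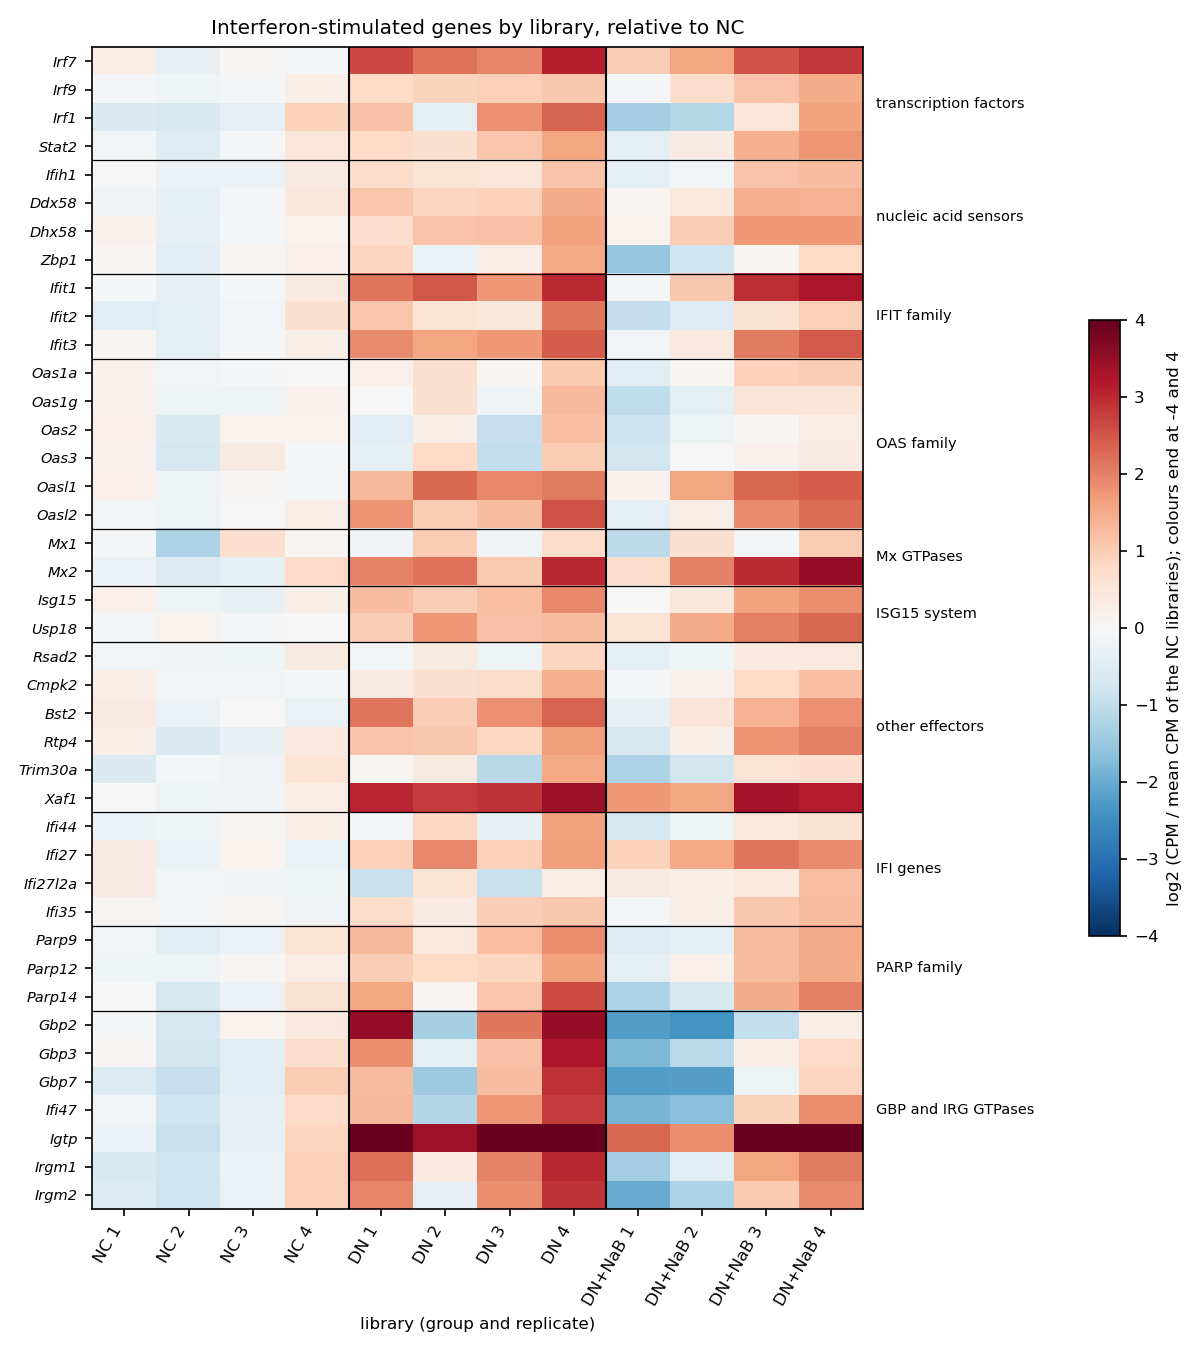
Level of each of the 41 genes (rows, by role) in each of the 12 libraries (columns) as log2 of its CPM over the mean CPM of the NC libraries, with colours ending at -4 and 4. DN 4 is the highest DN library for 36 genes, and DN+NaB runs from mostly low in replicate 1, the lowest for 37 genes, to mostly high in replicate 4, the highest for 37.

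Cytosolic sensors of nucleic acid followed, with Ddx58 and Dhx58 higher in DN. Ddx58 encodes RIG-I, which detects viral RNA, and Dhx58 encodes LGP2, its relative that tunes the same response. Ddx58 stood at 40.2, 34.4, 42.6 and 60.8 CPM in NC, 95.9, 81.2, 84.6 and 124 in DN and 47.5, 59.6, 119.6 and 116 in DN+NaB. The DN libraries all exceeded NC, while DN+NaB 1 and DN+NaB 2 lay within the NC range. Dhx58 stood at 3.86, 2.69, 3.31 and 3.76 CPM in NC, 5.55, 7.46, 7.61 and 10.7 in DN and 3.78, 6.67, 11.4 and 11.2 in DN+NaB. Here only DN+NaB 1 overlapped NC. The log2 fold changes against NC were 1.11 ± 0.29 (SE, adjusted p = 0.0318) for Ddx58 and 1.20 ± 0.31 (SE, adjusted p = 0.0268) for Dhx58 in DN. In DN+NaB they were 0.95 ± 0.29 (SE, adjusted p = 0.0421) for Ddx58 and 1.28 ± 0.31 (SE, adjusted p = 0.0121) for Dhx58. Ifih1, the sensor MDA5 of long RNA, ranged from 15.1 to 22.9 CPM across NC and 24.6 to 38.9 across DN without passing the test (log2 fold change 0.74 ± 0.33, adjusted p = 0.212). Zbp1, which binds Z-form nucleic acid and can trigger cell death, ranged from 7.17 to 11.2 CPM across NC, 8.24 to 28.4 across DN and 3.30 to 17.0 across DN+NaB, and the 3 groups overlapped.

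Of the IFIT proteins, which bind foreign RNA and hinder its translation, Ifit1 and Ifit3 rose in DN and Ifit2 did not pass the test. Ifit1 stood at 7.44, 6.14, 7.24 and 9.71 CPM in NC, 33.9, 43.1, 25.5 and 60.6 in DN and 7.35, 16.0, 58.9 and 72.9 in DN+NaB. DN+NaB 1 lay within the NC range and DN+NaB 4 above every DN library. Ifit3 stood at 25.2, 18.1, 22.2 and 27.7 CPM in NC, 85.7, 69.5, 77.0 and 124 in DN and 21.4, 30.6, 98.9 and 128 in DN+NaB. It showed the same arrangement, with DN+NaB 1 at the NC level. In DN against NC the log2 fold change was 2.42 ± 0.62 (SE, adjusted p = 0.0377) for Ifit1 and 1.93 ± 0.49 (SE, adjusted p = 0.0353) for Ifit3. In DN+NaB against NC it was 2.35 ± 0.62 (SE, adjusted p = 0.0276) for Ifit1, and Ifit3 missed the threshold at 1.58 ± 0.49 (SE, adjusted p = 0.0503). Ifit2 ranged from 10.2 to 21.4 CPM across NC, 18.7 to 58.5 across DN and 7.04 to 26.4 across DN+NaB, its DN range overlapping NC because of NC 4 (log2 fold change 1.21 ± 0.47, adjusted p = 0.157). Reads of Ifit3 may be shared with its near copy Ifit3b.

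In the 2′-5′-oligoadenylate synthetase family 1 of 6 members was higher in DN. The synthetases make a messenger that activates the RNA-degrading enzyme RNase L, whereas Oasl1 is a relative known for holding back the translation of Irf7. Oasl1 stood at 9.32, 6.95, 8.39 and 7.60 CPM in NC, 20.0, 39.3, 30.8 and 34.0 in DN and 9.07, 24.1, 39.3 and 43.6 in DN+NaB. All DN libraries and all but DN+NaB 1 of the treated libraries lay above NC. The log2 fold change against NC was 1.94 ± 0.39 (SE, adjusted p = 0.00849) in DN and 1.85 ± 0.39 (SE, adjusted p = 0.0068) in DN+NaB. Oasl2 ranged from 17.2 to 23.8 CPM across NC and 40.2 to 115 across DN, groups that did not overlap, and its log2 fold change was 1.78 ± 0.54 (SE, adjusted p = 0.0717). The 4 synthetases Oas1a, Oas1g, Oas2 and Oas3 had overlapping groups. Oas1a ranged from 4.61 to 5.59 CPM across NC and 5.27 to 10.3 across DN, and Oas2 from 2.94 to 5.20 across NC and 2.41 to 10.5 across DN. Oas1g ranged from 1.11 to 1.47 CPM across NC and 1.18 to 3.21 across DN, and Oas3 from 2.17 to 4.38 across NC and 1.76 to 7.02 across DN. Oas1a and Oas1g are near copies, so their reads may have been divided between them.

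The Mx proteins are dynamin-like GTPases that trap viral particles. Mx2 stood at 1.01, 0.805, 0.919 and 2.01 CPM in NC, 4.73, 5.30, 2.47 and 9.60 in DN and 1.94, 4.79, 9.36 and 13.7 in DN+NaB. Every DN library was above NC, and DN+NaB 4 was the highest of all 12 libraries while DN+NaB 1 lay within the NC range. Mx2 had a log2 fold change against NC of 2.21 ± 0.57 (SE, adjusted p = 0.0332) in DN and 2.64 ± 0.58 (SE, adjusted p = 0.00906) in DN+NaB. Mx1 ranged from 0.387 to 1.45 CPM across NC, 0.831 to 1.83 across DN and 0.442 to 1.84 across DN+NaB, with no separation of the groups. It had the lowest level per length of exon among the members in every group.

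Isg15, a ubiquitin-like protein that is attached to other proteins, and Usp18, the enzyme that removes it and also dampens signalling at the type I interferon receptor, both rose in DN. Isg15 stood at 2.37, 1.81, 1.70 and 2.43 CPM in NC, 4.87, 4.14, 4.74 and 7.93 in DN and 2.09, 2.85, 6.32 and 7.54 in DN+NaB. Usp18 stood at 5.68, 6.61, 5.78 and 6.09 CPM in NC, 11.9, 20.0, 13.7 and 14.3 in DN and 9.04, 16.8, 24.2 and 29.6 in DN+NaB. All treated libraries were above NC for Usp18, whereas DN+NaB 1 lay within the NC range for Isg15. Isg15 had a log2 fold change against NC of 1.38 ± 0.36 (SE, adjusted p = 0.0307) in DN and 1.18 ± 0.36 (SE, adjusted p = 0.0412) in DN+NaB. Usp18 had 1.31 ± 0.29 (SE, adjusted p = 0.0116) in DN and 1.72 ± 0.29 (SE, adjusted p = 0.00137) in DN+NaB, and 0.41 ± 0.28 (SE, adjusted p = 0.661) between DN+NaB and DN.

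Of 6 other antiviral effectors, Xaf1 and Bst2 rose in DN. Xaf1, a protein that promotes cell death by opposing its inhibitors, stood at 6.43, 5.57, 5.81 and 7.97 CPM in NC, 52.9, 44.5, 48.0 and 71.0 in DN and 21.3, 19.4, 64.6 and 56.5 in DN+NaB. Even the lowest diabetic library, DN+NaB 2, held more than the highest NC library. Xaf1 had a log2 fold change against NC of 3.07 ± 0.38 (SE, adjusted p = 0.000346) in DN and 2.65 ± 0.37 (SE, adjusted p = 0.000575) in DN+NaB, and it was -0.42 ± 0.35 (SE, adjusted p = 0.717) between DN+NaB and DN. Bst2, or tetherin, holds budding virus on the cell surface. Bst2 stood at 23.1, 15.2, 18.2 and 14.9 CPM in NC, 79.4, 35.0, 62.9 and 91.5 in DN and 14.6, 25.3, 47.1 and 63.3 in DN+NaB. All DN libraries exceeded NC, while DN+NaB 1 lay below every NC library. Its log2 fold change was 1.91 ± 0.42 (SE, adjusted p = 0.0157) in DN against NC, -0.84 ± 0.41 (SE, adjusted p = 0.538) in DN+NaB against DN and 1.07 ± 0.41 (SE, adjusted p = 0.101) in DN+NaB against NC, so the last of these did not pass the test.

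Rtp4, a chaperone that also restrains viruses, ranged from 5.88 to 11.6 CPM across NC, 15.6 to 28.1 across DN and 5.50 to 35.5 across DN+NaB, with DN above NC (log2 fold change 1.21 ± 0.49, adjusted p = 0.176). Cmpk2 and Rsad2 are neighbouring genes that act together to make an antiviral nucleotide. Cmpk2 ranged from 18.9 to 24.7 CPM across NC and 26.3 to 56.3 across DN without overlap (log2 fold change 0.85 ± 0.28, adjusted p = 0.0835), and Rsad2, or viperin, from 23.6 to 33.8 across NC and 22.9 to 47.5 across DN with overlap (log2 fold change 0.28 ± 0.24, adjusted p = 0.556). Trim30a, of a family of similar genes, ranged from 3.89 to 8.46 CPM across NC and 2.68 to 17.0 across DN. None of these 4 passed the test in any of the 3 comparisons.

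Ifi27, an interferon-induced protein linked to mitochondria and the nuclear envelope, stood at 60.8, 40.5, 54.0 and 40.5 CPM in NC, 95.6, 185, 94.5 and 154 in DN and 92.3, 144, 215 and 181 in DN+NaB. Both diabetic groups lay above NC without overlap, and the highest library was DN+NaB 3. Ifi27 had a log2 fold change against NC of 1.44 ± 0.28 (SE, adjusted p = 0.0067) in DN and 1.69 ± 0.28 (SE, adjusted p = 0.00159) in DN+NaB, with 0.25 ± 0.27 (SE, adjusted p = 0.785) between DN+NaB and DN. Its small relative Ifi27l2a ranged from 9.33 to 13.2 CPM across NC, 5.66 to 15.4 across DN and 12.6 to 24.0 across DN+NaB. Its log2 fold change in DN against NC was -0.08, near 0 and the only one of the members below it. In DN+NaB against DN the log2 fold change of Ifi27l2a was 0.70 ± 0.32 (SE, adjusted p = 0.506). That was the highest of the 7 members above 0, Ifi27 among them, while 34 were below 0. Ifi35 ranged from 12.3 to 14.7 CPM across NC and 16.9 to 28.9 across DN without overlap (log2 fold change 0.81 ± 0.26, adjusted p = 0.0721). Ifi44 ranged from 6.00 to 8.49 CPM across NC and 5.84 to 21.5 across DN with overlap (log2 fold change 0.72 ± 0.38, adjusted p = 0.304).

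The PARP members transfer ADP-ribose to proteins or read that mark, and none of the 3 passed the test. Parp14, the member of this family with the highest mean, stood at 49.5, 32.3, 42.6 and 75.7 CPM in NC, 149.8, 54.3, 108 and 308 in DN and 21.3, 32.3, 139 and 202 in DN+NaB. DN 2 lay within the NC range and DN 4 was the highest library. Parp14 had a log2 fold change of 1.63 ± 0.74 (SE, adjusted p = 0.234) in DN against NC and -0.65 ± 0.73 (SE, adjusted p = 0.795) in DN+NaB against DN. Parp12 ranged from 28.0 to 39.7 CPM across NC and 56.3 to 99.6 across DN without overlap (log2 fold change 1.11 ± 0.35, adjusted p = 0.0765), and Parp9 from 17.8 to 36.6 across NC and 33.0 to 88.0 across DN (log2 fold change 1.28 ± 0.47, adjusted p = 0.135).

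**Figure D3:**
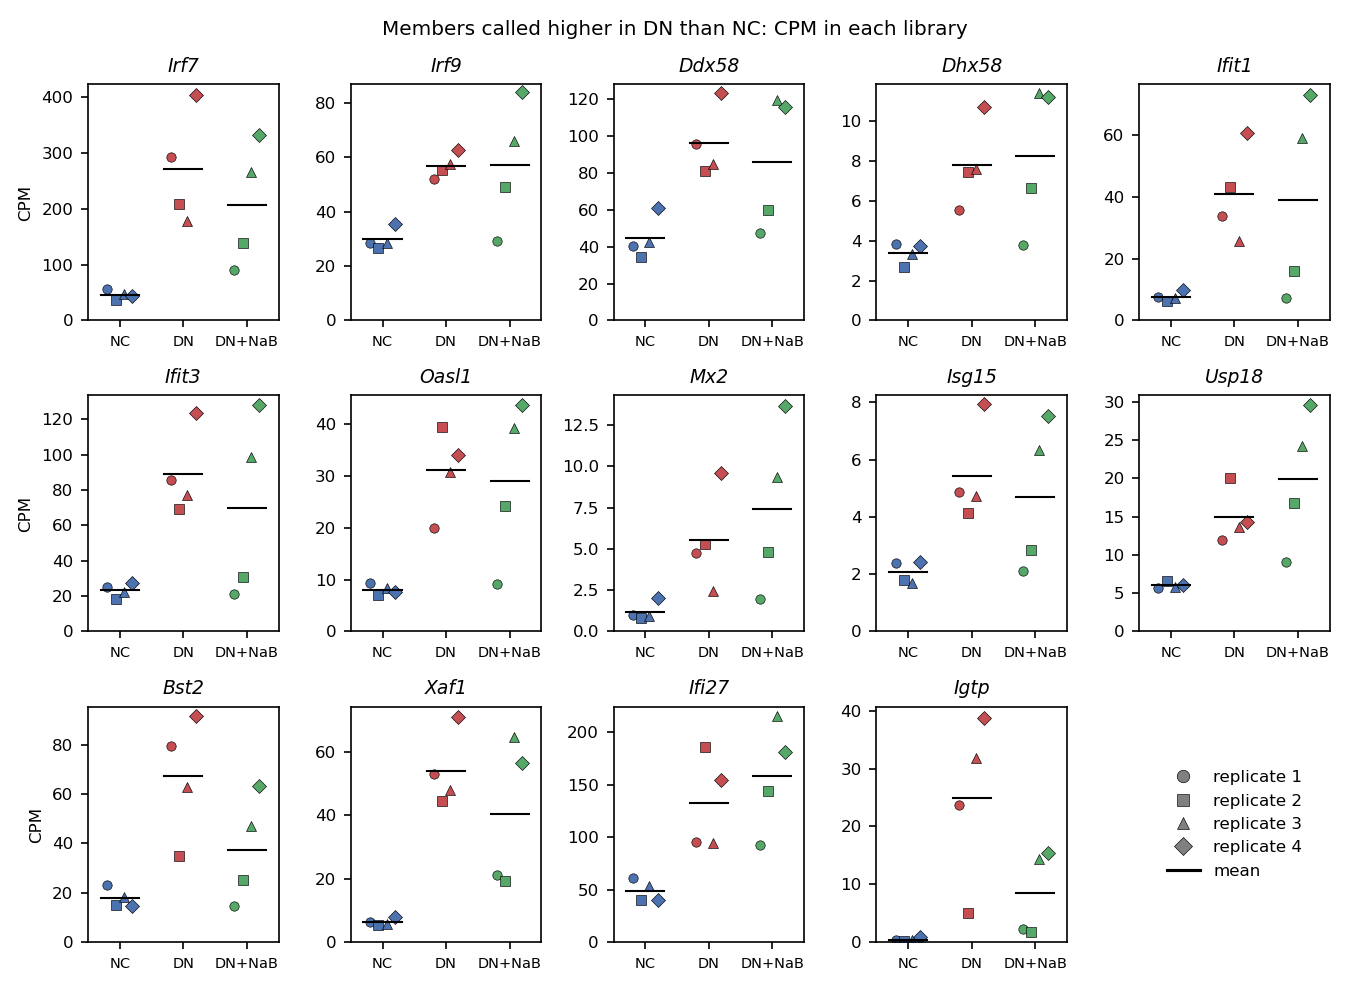
CPM (vertical axis, starting at 0) of the 14 genes called higher in DN than NC, in each library of the 3 groups; symbols mark replicates 1 to 4 and horizontal lines the group means. All 4 DN libraries lie above all 4 NC libraries in each panel, while the DN+NaB libraries often span from the NC level to the top of the DN range.

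The interferon-induced GTPases varied widely between libraries of a group. The guanylate-binding proteins Gbp2, Gbp3 and Gbp7 and the immunity-related GTPases Ifi47, Igtp, Irgm1 and Irgm2 gather on membranes around microbes inside cells, and they are known as strong targets of interferon gamma. Of the 7, only Igtp was called in DN against NC, although the median log2 fold change of the 7 was 2.01 in that comparison. Gbp2 stood at 57.1, 37.0, 64.5 and 76.6 CPM in NC, 669.7, 23.3, 256 and 678 in DN and 12.4, 11.2, 29.8 and 71.8 in DN+NaB. DN 1, DN 3 and DN 4 were above all NC libraries, whereas DN 2 was below all of them. Its log2 fold change was 2.79 ± 0.92 (SE, adjusted p = 0.103) in DN against NC. Without DN 2 it was 3.19 with an adjusted p of 0.0194, but that fit leaves out the DN library that went the other way. In DN+NaB against DN the log2 fold change was -3.70 ± 0.96 (SE, adjusted p = 0.234), the lowest value of any member. DESeq2 gave that comparison -3.71 with an adjusted p of 0.00312. DN 2, at 23.3 CPM, lay within the DN+NaB range of 11.2 to 71.8. Against NC, 3 of the 4 DN+NaB libraries lay below the lowest NC library.

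Irgm1 stood at 53.3, 47.6, 69.2 and 158 CPM in NC, 376, 109, 324 and 663 in DN and 31.3, 60.2, 243 and 347 in DN+NaB. DN 2 again lay within the NC range. Gbp3 ranged from 10.3 to 28.4 CPM across NC, 13.5 to 164 across DN and 4.99 to 29.8 across DN+NaB, and Gbp7 from 15.2 to 58.3, 10.4 to 215 and 6.04 to 52.1 in the same order. Ifi47 ranged from 6.27 to 18.4 CPM across NC, 4.80 to 75.7 across DN and 2.96 to 39.0 across DN+NaB. The log2 fold changes in DN against NC were 2.01 ± 0.77 (SE, adjusted p = 0.156) for Gbp3, 1.66 ± 0.94 (SE, adjusted p = 0.352) for Gbp7, 1.73 ± 0.94 (SE, adjusted p = 0.326) for Ifi47, 2.17 ± 0.81 (SE, adjusted p = 0.145) for Irgm1 and 1.96 ± 0.90 (SE, adjusted p = 0.236) for Irgm2. In DN+NaB against DN all 7 were below 0, with values of -2.13 for Gbp3, -2.02 for Gbp7, -1.14 for Ifi47, -1.11 for Irgm1 and -1.28 for Irgm2, none past the threshold. DN 2 was the lowest and DN 4 the highest DN library for all 7, and NC 2 and NC 4 held those places in NC. Beside this, 12 marker genes of T and natural killer cells, which make interferon gamma, summed to 17.6 to 30.5 CPM across NC, 6.95 to 21.7 across DN and 2.65 to 4.34 across DN+NaB. The lowest DN sum, 6.95, was in DN 3, where all 7 GTPases lay above the highest NC library. The part of these cells in the GTPase values was not tested.

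**Figure D4:**
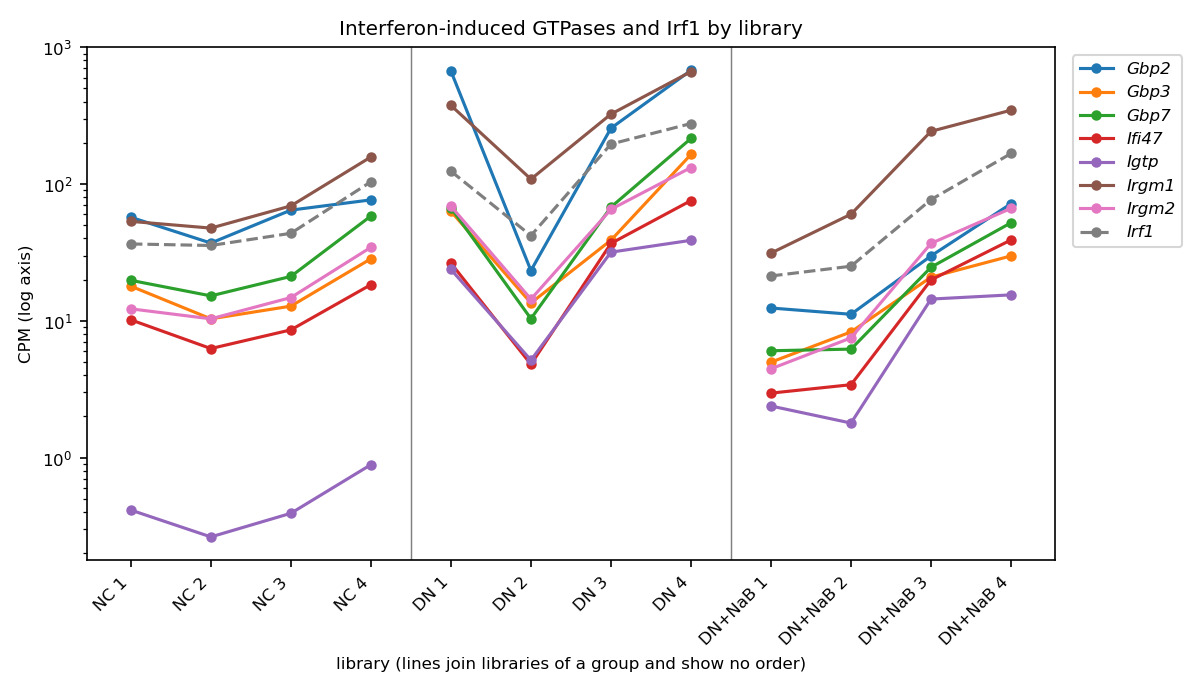
CPM on a log axis (vertical) of the 7 GTPases (solid lines) and of Irf1 (dashed line) in each of the 12 libraries (horizontal); lines join libraries of a group and show no order. DN 2 is the lowest DN library for all 7 GTPases, and in NC the values of Igtp are all below 1 CPM.

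Igtp had the highest log2 fold change of all members in DN against NC. Igtp stood at 0.413, 0.263, 0.392 and 0.888 CPM in NC, 23.7, 5.16, 31.8 and 38.8 in DN and 2.38, 1.79, 14.4 and 15.5 in DN+NaB. Its NC level came from 27, 17, 26 and 64 counts, and the lowest diabetic library, DN+NaB 2, held 108. All 8 diabetic libraries were thus above NC, DN 2 included. Igtp had a log2 fold change against NC of 5.65 ± 0.95 (SE, adjusted p = 0.00437) in DN and 4.11 ± 0.90 (SE, adjusted p = 0.0115) in DN+NaB, and -1.54 ± 0.77 (SE, adjusted p = 0.558) between DN+NaB and DN. Igtp and Irgm2 overlap on the same strand in the GENCODE vM21 annotation, and the way reads shared by both were counted is not given in the sources used here. Irgm2 stood at 12.2, 10.3, 14.8 and 34.5 CPM in NC, 68.8, 14.4, 65.3 and 132 in DN and 4.46, 7.50, 36.8 and 66.4 in DN+NaB. Igtp made up 3.27%, 2.48%, 2.58% and 2.51% of the counts of both genes in NC, but 25.7%, 26.4%, 32.7% and 22.7% in DN. In DN+NaB it made up 34.8%, 19.3%, 28.1% and 18.9%. The share was therefore at least 18.9% in every diabetic library and at most 3.27% in NC, also where the summed level was as low as in NC: DN 2 held 19.6 CPM of both together and NC 4 held 35.4.

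Levels can be compared between genes per length, as CPM per kilobase of merged exons in GENCODE vM21. On that scale Ifi27 was highest in NC at a mean of 33.4, followed by Gbp2 at 23.4, Ifi27l2a at 22.6 and Bst2 at 19.8. In DN, Gbp2 was first at 161.7, ahead of Ifi27 at 90.3, Bst2 at 74.4 and Irf7 at 71.7. In DN+NaB, Gbp2 was at rank 12 with 12.4, behind Ifi27 at 107.7, Irf7 at 54.9 and Bst2 at 41.6. Igtp moved from rank 40 of 41 in NC to rank 19 in DN and rank 28 in DN+NaB. These are ranks of group means, and the Gbp2 mean in DN spans libraries from 23.3 to 678 CPM.

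Within a group the members varied more between libraries than tested genes in general. The median SD of log2 CPM within DN+NaB was 0.91 over the members and 0.22 over all tested genes. In DN it was 0.58 against 0.33, and in NC 0.29 against 0.24. The median over members of the log2 level relative to the NC mean was -0.38 in DN+NaB 1, 0.22 in DN+NaB 2, 1.21 in DN+NaB 3 and 1.57 in DN+NaB 4. In DN it was 1.17, 0.67, 1.16 and 1.72. DN+NaB 1 had 6 members above the highest NC library and 23 below the lowest, while DN+NaB 4 had 38 above and none below. DN+NaB 2 had 14 above and 11 below, and DN+NaB 3 had 32 above and 1 below. DN 1 to 4 had 33, 28, 31 and 40 members above the highest NC library and 1, 3, 6 and 0 below the lowest. Of all 17530 tested genes, 26.0% to 32.7% lay above the highest NC library in a given DN or DN+NaB library, and 25.6% to 33.5% below the lowest.

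By median, the GTPases and the other 34 members put the DN libraries in the same order. The gap between DN 2 and the rest was wider for the GTPases. For the other 34 the medians of DN 1, DN 2 and DN 3 lay close together, so that order rests on small differences. Gene by gene, DN 2 was the lowest DN library for all 7 GTPases. Among the other 34, DN 3 was lowest for 15, DN 2 for 13 and DN 1 for 6. DN 2 had a median log2 level relative to NC of -0.25 for the GTPases and 0.84 for the other 34, while the remaining DN libraries were at 2.11, 2.03 and 3.19 for the GTPases and 0.99, 0.97 and 1.62 for the others. In DN+NaB the medians were -1.75, -1.08, 0.99 and 1.96 for the GTPases and -0.35, 0.26, 1.29 and 1.54 for the others. This difference between the 2 sets is a description of library values and was not tested.

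Genes that make and carry the interferon signal are given next, beside the shares of all tested genes called. Those shares were 3.82% higher and 4.42% lower in DN against NC, and 6.62% and 8.94% in DN+NaB against NC. With such shares, no call in a list of 6 genes is not unusual. None of the 20 interferon ligand genes had enough counts to be tested. Ifnb1 had 0 counts throughout (each library could hold up to 3 by this limit). Ifng, interferon gamma, had 6, 1, 6 and 15 counts in NC, 0, 7, 0 and 5 in DN and 0 in every DN+NaB library. Among alpha interferons, Ifna2 had 6 counts in DN+NaB 1 and 0 elsewhere. None of the 6 receptor genes was called in any comparison, with Ifnar1, the type I receptor chain, at 91.8 to 103 CPM across NC, 91.9 to 105 across DN and 82.4 to 93.8 across DN+NaB. Ifngr1, the gamma receptor chain, was at 24.9 to 34.9 CPM across NC, 24.7 to 30.1 across DN and 23.3 to 26.9 across DN+NaB.

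None of the 6 inhibitors of the pathway was called in any comparison, which is not unusual either at the shares given above. Of 13 nucleic acid receptors and adaptors tested, Adar and Trex1 rose in DN (15.4%, beside 3.82% of all tested genes). Adar, which edits double-stranded RNA and so shields it from the sensors, stood at 63.6, 54.7, 58.6 and 63.3 CPM in NC, 86.4, 99.5, 103 and 107 in DN and 74.0, 91.7, 119 and 136 in DN+NaB. It lay above NC in all 8 diabetic libraries, with a log2 fold change of 0.72 ± 0.16 (SE, adjusted p = 0.0114) in DN and 0.81 ± 0.16 (SE, adjusted p = 0.00337) in DN+NaB. Trex1, which degrades stray DNA, ranged from 10.1 to 13.6 CPM across NC and 13.5 to 21.6 across DN, and its log2 fold change was 0.59 ± 0.16 (SE, adjusted p = 0.0387). That call was lost without any of the 4 NC libraries, DN 2, DN 3, DN+NaB 2 or DN+NaB 3, with adjusted p up to 0.122 over its alternatives. It was also lost with library size only, limma voom, only the groups compared and a replicate block, and was kept in 9 of 21 alternatives. In DN+NaB against NC, 1 of these 13 was called higher (Adar) and 1 lower (Mb21d1), beside 6.62% and 8.94% of all tested genes. Mb21d1, the DNA sensor cGAS, was lower in DN+NaB than NC by a log2 value of -1.26 ± 0.38 (SE, adjusted p = 0.0381). It spanned 0.495 to 1.04 CPM across NC and 0.265 to 0.316 across DN+NaB, where it held only 16 to 22 counts per library. This call was lost with no filter on low counts and without NC 1, NC 3, NC 4 or any DN+NaB library, with adjusted p up to 0.107 over its alternatives. Of 4 other interferon regulatory factors, Irf5, a factor of macrophages and dendritic cells, fell. Irf5 stood at 16.9, 14.7, 15.8 and 18.2 CPM in NC, 6.82, 10.6, 10.5 and 11.7 in DN and 8.41, 6.99, 9.68 and 8.83 in DN+NaB, with a log2 fold change against NC of -0.73 ± 0.17 (SE, adjusted p = 0.0152) in DN and -0.95 ± 0.17 (SE, adjusted p = 0.00179) in DN+NaB.

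Several calls lay near the threshold, and others did not. Irf7, Oasl1, Usp18, Xaf1, Ifi27 and Igtp remained called in DN against NC in all 21 alternative analyses, 12 of which leave out 1 library, and Bst2 in 20 of them. Ifit1 and Ifit3 lost the call without any 1 of the NC or DN libraries, with adjusted p from 0.0544 to 0.0981 for Ifit1 and from 0.0504 to 0.0971 for Ifit3. Irf9 lost it without NC 1, NC 2, NC 3, DN 2, DN 3 or DN 4 (adjusted p 0.0538 to 0.0953). Ddx58 lost it without NC 1, NC 2, NC 3, DN 1, DN 3 or DN 4 (adjusted p 0.0528 to 0.103). Dhx58 and Isg15 lost it without any NC library or DN 4, with adjusted p of 0.0608 to 0.0941 for Dhx58 and 0.0617 to 0.0994 for Isg15. Mx2 lost it without NC 1, NC 2, NC 3, DN 2 or DN 4 (adjusted p 0.0607 to 0.0998). Each of these 7 also lost the call with library size only, with no filter on low counts or with limma voom, the last for Dhx58 and Mx2. Of the 21 alternatives, 12 kept it for Ifit1 and for Ifit3, and 13 for Irf9 and for Ddx58. For Dhx58 and for Mx2 14 kept it, and for Isg15 15. Over the 21 alternatives the log2 fold changes spanned 2.15 to 2.59 for Ifit1, 1.71 to 2.03 for Ifit3, 0.83 to 1.02 for Irf9, 0.95 to 1.29 for Ddx58, 0.99 to 1.34 for Dhx58, 1.12 to 1.49 for Isg15 and 1.79 to 2.60 for Mx2. All 7 stayed above 0 in each of them. In the other direction Oasl2 and Parp12 gained a call without DN+NaB 1 (adjusted p 0.0253 and 0.0195), and Cmpk2 without DN+NaB 4 (0.0457). Ifi35 gained one without DN 2, DN+NaB 1 or DN+NaB 4 (0.0497, 0.0301 and 0.0467), and Gbp2 without DN 2, as given above. Over all 21 alternatives, 12 of the 27 uncalled members gained a call in at least 1.

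In DN+NaB against NC, Irf7, Dhx58, Oasl1, Mx2, Usp18, Xaf1 and Ifi27 remained called in all 21 alternatives and Igtp in 20. Irf9 and Ifit1 lost the call without NC 1, NC 2, NC 3, DN+NaB 3 or DN+NaB 4, with adjusted p of 0.0511 to 0.0578 for Irf9 and 0.0648 to 0.0702 for Ifit1. Isg15 lost it without any NC library, DN 1, DN+NaB 3 or DN+NaB 4 (adjusted p 0.0522 to 0.138). Ddx58 lost it without NC 1, NC 2, NC 3, any DN library, DN+NaB 3 or DN+NaB 4 (adjusted p 0.0502 to 0.119). Ifit1, Isg15 and Ddx58 also lost it with limma voom and with no filter on low counts. Library size only and the filter of 1 CPM in 4 libraries lost it for Isg15 and Ddx58, and only the groups compared for Ifit1 and Ddx58. Of the 21 alternatives, 16 kept the call for Irf9, 13 for Ifit1, 10 for Isg15 and 7 for Ddx58. Leaving out DN+NaB 1 added Stat2, Ifit3, Oasl2, Bst2, Rtp4, Ifi35 and Parp12, with adjusted p of 0.0226, 0.00801, 0.0292, 0.021, 0.0184, 0.0156 and 0.0216 in that order. Ifit3 was also called without DN+NaB 2 (adjusted p 0.0292).

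Totals ran from 58394975 to 70674015 counts per library (median 63588713). The tissue label names renal cortex, while the extraction text for these samples names a brain region. The 8 kidney markers summed to at least 20685 CPM in each library. The 5 brain markers summed to 15.9 to 24.6 CPM over the 12 libraries. Most of that sum was Mbp, a myelin gene, at 942 to 1501 counts. The synaptic gene Syt1 had 1 to 15 counts, the astrocyte gene Gfap 2 to 41 and Slc17a7 0 to 2, and Snap25, a gene of neurons, was at 0 in every library. Immune cell markers differed between the groups, and their part in the results above was not tested. The 12 markers of T and natural killer cells, of which Trac was at 0 in all libraries, summed to 25.1, 18.1, 30.5 and 17.6 CPM in NC, 21.7, 11.6, 6.95 and 12.6 in DN and 2.65, 3.33, 4.34 and 4.02 in DN+NaB, and 9 of 10 tested were called lower in DN+NaB than NC. The 11 macrophage and dendritic cell markers summed to 315, 256, 286 and 219 CPM in NC, 151, 151, 171 and 286 in DN and 134, 137, 156 and 168 in DN+NaB. In DN against NC, 2 of these 11 were called lower, and in DN+NaB against NC 9 were. The shares of all tested genes called lower were 4.42% and 8.94% in that order. The 6 B and plasma cell markers spanned 8.03 to 24.8 CPM across NC, 1.61 to 2.66 across DN and 1.48 to 1.87 across DN+NaB. Plasmacytoid dendritic cells are the main makers of alpha interferon, and 4 of their markers, without Bst2 and Klk1, summed to 1.53 to 2.02 CPM across NC, 1.36 to 2.53 across DN and 1.81 to 3.61 across DN+NaB. Most of each sum was Cox6a2, which was called higher in DN+NaB than NC (log2 fold change 1.04 ± 0.27 (SE), adjusted p = 0.0191 by edgeR). Siglech spanned 0.286 to 0.449 CPM across NC, 0.0313 to 0.158 across DN and 0.0331 to 0.391 across DN+NaB. All DN libraries lay below all NC libraries for it, with a log2 fold change of -2.08 ± 0.64 (SE) that missed the threshold (adjusted p = 0.0606 by edgeR). Siglech held only 2 to 9 counts per DN library. The mean of Ccr9, from the same list, was higher in DN than NC. It was 0.128 CPM in NC (6 to 14 counts), 0.234 in DN (10 to 20 counts) and 0.0639 in DN+NaB. The 5 neutrophil markers summed to 28.1 CPM in DN 4, the highest DN library for 36 members, and to between 2.50 and 4.23 in the other DN libraries. They spanned 2.86 to 4.52 CPM in NC and were at 1.14, 2.55, 5.83 and 4.94 in DN+NaB 1 to 4. The 5 erythroid markers were also highest in DN 4, at 247 CPM, against 6.19 to 10.5 in the other DN libraries. They spanned 25.5 to 93.2 CPM in NC and were at 7.69, 21.2, 134 and 4.18 in DN+NaB 1 to 4. The part of these cells in the members' values was not tested.

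**Figure D5:**
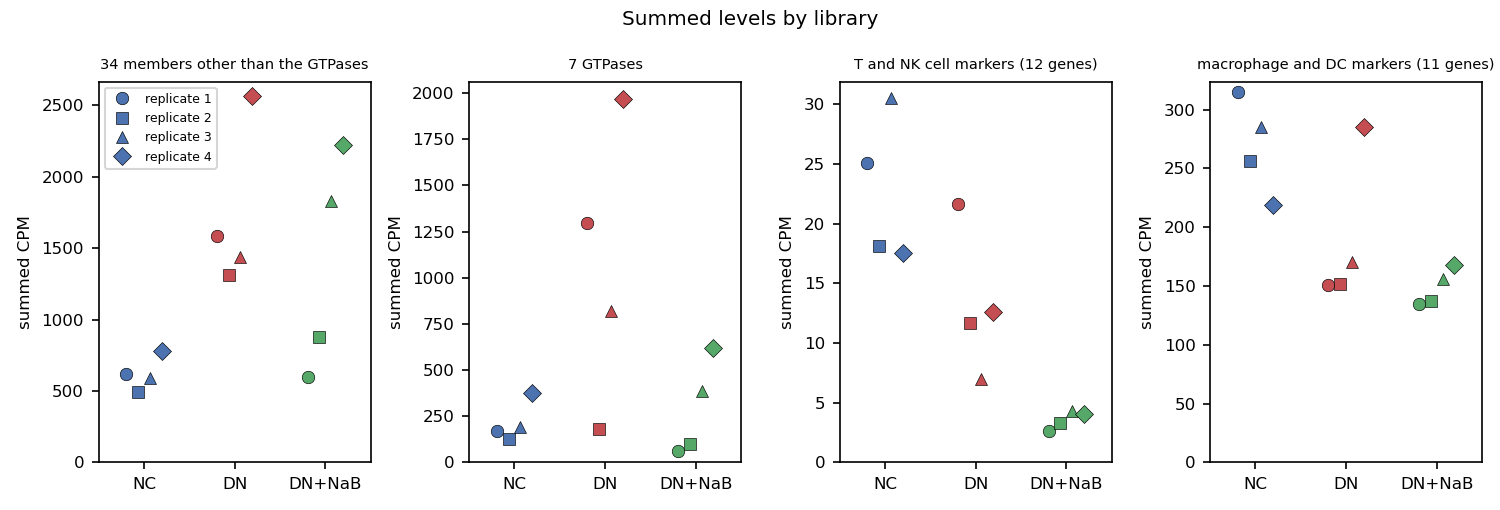
Summed CPM (vertical axes, starting at 0) in each library of the 34 members other than the GTPases, the 7 GTPases, 12 T and natural killer cell markers and 11 macrophage and dendritic cell (DC) markers, with symbols for replicates 1 to 4. The sum of the 34 members is above NC in every DN library, and that of the 7 GTPases in every DN library but DN 2. Single genes can differ from the sums: 6 of the 34 lay below the lowest NC library in DN 3 and 1 in DN 1. DN+NaB 1 lies within the NC range for the 34 members, and the T and natural killer markers are lowest in DN+NaB.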

How the data were processed

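Gene counts from RNA-seq of mouse renal cortex were analysed in 12 libraries. The authors deposited 1 table of raw, whole-number counts for each gene symbol. The submitters' processing notes list HISAT2 2.0.4. Not given in the sources used here are the counter, how it treated strand and multiply matched reads, the gene annotation and the genome build. Members with near copies (Oas1a and Oas1g, Ifit3, the Gbp and Trim30 families) or overlapping genes (Igtp with Irgm2, Irf7 with Phrf1, Irf9 with Rnf31, Parp9 with Dtx3l, Ifi47 with Olfr56) are therefore uncertain. Groups were taken from the sample titles and disease labels.

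Genes were filtered with filterByExpr, which left 17530 of 46095, and scaled with TMM factors. All 12 libraries entered 1 quasi-likelihood fit of edgeR 4.0.16 (R 4.3.3) with group as the only term, robust estimation and two-sided tests. P-values were adjusted by Benjamini-Hochberg over all tested genes within a comparison, and a gene was called under 0.05 with no fold limit. CPM values use the TMM factors, and log2 CPM a prior count of 2. Standard errors come from the fold change and its F statistic. The script was tested on simulated data. Libraries of a group always differed beyond sampling noise (chi-square per degree of freedom 23.6 or more). Total counts of 58394975 to 70674015 set the precision, and the limit that a count of 0 allows is 3 counts, which covers counting error only. DESeq2 1.42.0 and limma 3.58.1 were alternatives, with other scalings and filters, a replicate block and each library left out.

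The members, the gene lists and the alternatives were chosen with earlier results of these data known. Every member is named, with values per library for members called in at least 1 comparison and, in a role group without one, for the most abundant. Values per library of Irf1, Gbp2, Irgm1 and Irgm2 were added after they were seen. Pathway genes are named where called, with Ifnb1, Ifng, Ifnar1 and Ifngr1 in any case and Ifna2 added. The kinases and transducers of the pathway are not reported here. Promoter windows are from RefSeq (GRCm38.p6). For 30 of 35 windows of members the last 25 bases were found in a transcript of the same gene in GENCODE vM21, whose merged exons gave lengths.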

Additional observations from a re-analysis of the deposited data

Results flagged for a closer look

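Dixon's test was applied to 141 sets of 4 libraries (47 genes in 3 groups), once on CPM and once on log2 CPM. On CPM, 1 library stood far from the other 3 of its group in 9 sets, and on log2 CPM in 4 of those 9. Chance flags about 1 in 20 groups.

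Both scales picked out 4 NC values. Oas2 was low in NC 2 at 2.94 CPM, against 4.95 to 5.20 in the other NC libraries. Rsad2 was high in NC 4 at 33.8 CPM, against 23.6 to 24.5. Cmpk2 was high in NC 1 at 24.7 CPM, against 18.9 to 19.5, and Ifi27l2a was high in the same library at 13.2 CPM, against 9.33 to 9.81. None of these 4 members was called in any comparison by edgeR.

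On CPM alone, 4 values were high in NC 4. Irf1 was at 103.9 CPM there, against 35.5 to 43.6 in the other NC libraries, and Gbp7 at 58.3 CPM, against 15.2 to 21.1. Mx2 was at 2.01 CPM, against 0.805 to 1.01, and Ifnar1 at 103.4 CPM, against 91.8 to 93.7. Ifi27l2a in DN+NaB 4 was the remaining one, at 24.0 CPM against 12.6 to 14.1. Of these 5 values only that of Mx2 belongs to a gene called in a comparison.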

How the results depend on the processing

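The number of members called higher in DN than NC was 14 with RLE factors and with a filter of at least 1 CPM in 4 libraries, 10 with library size only, 12 with limma voom, 16 without robust estimation and 20 with DESeq2. It was 8 with no filter on low counts and 22 when only the groups compared were fitted, and 7 to 17 when 1 library was left out. For DN+NaB against NC it was 8 to 14 over the other alternatives and 8 to 19 when 1 library was left out. No member was called lower against NC in any alternative, and for DN+NaB against DN 1 was called lower by DESeq2. The list medians moved to 1.002 to 1.37, -0.58 to -0.02 and 0.38 to 1.04 when 1 library was left out, for DN against NC, DN+NaB against DN and DN+NaB against NC. Of the 27 members not called in DN against NC, 12 gained a call in some alternative and 4 changed sign in some alternative. None was called with a changed sign.

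All tested genes called numbered 942 to 1976 for DN against NC when 1 library was left out (942 without NC 1). For DN+NaB against DN they numbered 4, but 22 with RLE factors, 26 with library size only, 27 with no filter, 17 with the CPM filter, 257 with DESeq2, 2 with limma voom and 0 with only the groups compared, and 0 to 67 when 1 library was left out. With library size only, 31.3% of the calls in DN against NC were higher, against 46.4% with TMM, and the median of all genes moved from 0.01 to -0.08. The cause of these shifts was not tested.

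The labels link libraries of different groups only by replicate number. Of 12 same-numbered pairs of libraries, 6 correlated above 0.1 in their deviations from the group means (range -0.25 to 0.27). In 8 of the 12 pairs, not all, the best correlation was with the same number. With a replicate block 21 members were called higher in DN than NC, none between DN+NaB and DN, and 13 in DN+NaB than NC, and 7 of all genes were called between DN+NaB and DN. Depth limits Igtp in NC, at 17 to 64 counts per library, and Ifng, at 0 to 15.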
